A study of Mus musculus with 6 samples.

Results

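The genes described here encode splicing proteins and the machinery that cuts and polyadenylates mRNA, measured in sorted bone marrow long-lived plasma cells of mice. Members were the rows of the deposited gene table whose symbol begins with Srsf, Hnrnp, Snrp, Sf3, Cpsf or Cstf, together with Pcf11, Clp1 and Nudt21. The rule gave 65 of the 13642 genes in the table: 20 Hnrnp, 11 Srsf, 10 Snrp, 9 Sf3, 8 Cpsf and 4 Cstf genes and the 3 single genes. One of them, Cpsf3l, carries a Cpsf symbol but is known as a catalytic subunit of the Integrator complex, and it is counted under its symbol. The study profiled 3 young and 3 old libraries of C57BL/6J plasma cells, sorted for high CD138 and against B220, IgD, TCRb, TCRgd, CD11b and Gr-1. The young group was female, aged 2 to 3 months, and supplied by Jackson Laboratory or a UCLA animal facility. The old group was male, aged 17 to 19 months, and was obtained through the National Institute on Aging. Age, sex and supplier therefore cannot be told apart. The series text speaks of independent groups of mice and does not say how many animals stand behind a library, and the p-values below reflect only how far libraries of a group differ, which may be partly technical.

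Splicing removes introns in the spliceosome, where small nuclear ribonucleoproteins (the Snrp genes) and the U2-associated SF3A and SF3B complexes recognise the ends and the branch point of an intron. SR proteins (Srsf genes) and hnRNP proteins bind the transcript and steer which sites are used. At the 3′ end, CPSF reads the AAUAAA signal and cuts the transcript, CstF binds the GU-rich element downstream, and cleavage factors I and II assist. In plasma cells the antibody heavy chain transcript is processed at a weak upstream site that yields the secreted form, in place of splicing on to the membrane exons. CstF-64, the product of Cstf2, is known to favour that upstream site, hnRNP F to oppose CstF-64 there, and hnRNP LL to promote the secreted form and to regulate splicing of the CD45 transcript. Antibody heavy chain genes and transcript isoforms were not analysed here, so the values below are gene levels of the factors alone.

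Values are FPKM, fragments scaled to gene length and library depth, as deposited. Depth was read from the steps of the lowest values: relative to young replicate 1 it was 1.04 and 0.920 in young replicates 2 and 3 and 1.10, 1.15 and 1.12 in old replicates 1 to 3, or about 22.6 M to 28.3 M counted reads per library if gene lengths are merged exons. Genes with a value above 0 numbered 8934 to 10664 in young and 11310 to 12049 in old libraries. Differences were tested with limma on log2(FPKM + 1) over the 10687 genes with a mean of at least 1 FPKM, and a log2 change is the old mean minus the young mean of those values, a scale that understates the change of low genes. Of the 65 members, 64 passed that filter and Srsf12 did not. Plasma cell genes were high throughout, with Jchain at 16937 to 19793 FPKM in 5 libraries and 7514 in old replicate 3. Markers of other cells were present too. The 5 T cell genes summed to 7.02 to 23.5 FPKM, most of it Cd4 in 5 of the libraries, with Cd3d and Cd3e at 0 in the young group. The 9 neutrophil genes summed to 259 to 1248, and 6 eosinophil and basophil genes to 890 to 1381, most of it Prg2. Sums were 239 to 629 for 6 plasmacytoid dendritic cell genes and 129 to 274 for 7 B cell genes. For any gene in such bulk samples, fewer cells of a type and less RNA per cell cannot be told apart.

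Limma called 0 of the 64 tested members at a Benjamini-Hochberg adjusted p under 0.05, and it called 0 of all 10687 genes, a background of 0%. The smallest adjusted p of any member was 0.839, and over the alternative settings that smallest value ranged from 0.435 to 0.943. At an unadjusted p under 0.05 there were 2 members, Sf3b6 and Cpsf3, both higher in old libraries, against 4.66% of all genes tested that were higher and 1.25% that were lower, and 5.91% in either direction. The members' share, 2 of 64, was not above that background. The groups did not overlap for 5 of the 64 members, against 12.2% of all genes tested. These were Sf3b1, Sf3b5, Sf3b6 and Hnrnph1 with old above young, where the background is 8.78%, and Srsf11 with old below young, where it is 3.42%. By sign alone 40 members had a positive and 24 a negative log2 change, and 61.3% of all genes had a positive one. The member median of 0.17 lay beside a median of 0.23 over all genes tested. Among genes with a mean of at least 20 FPKM, where the median of all 2835 genes was 0.018, the 36 members had a median of 0.17 with 24 positive (66.7%, against 51.4% of all genes at that level).

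**Figure D1:**
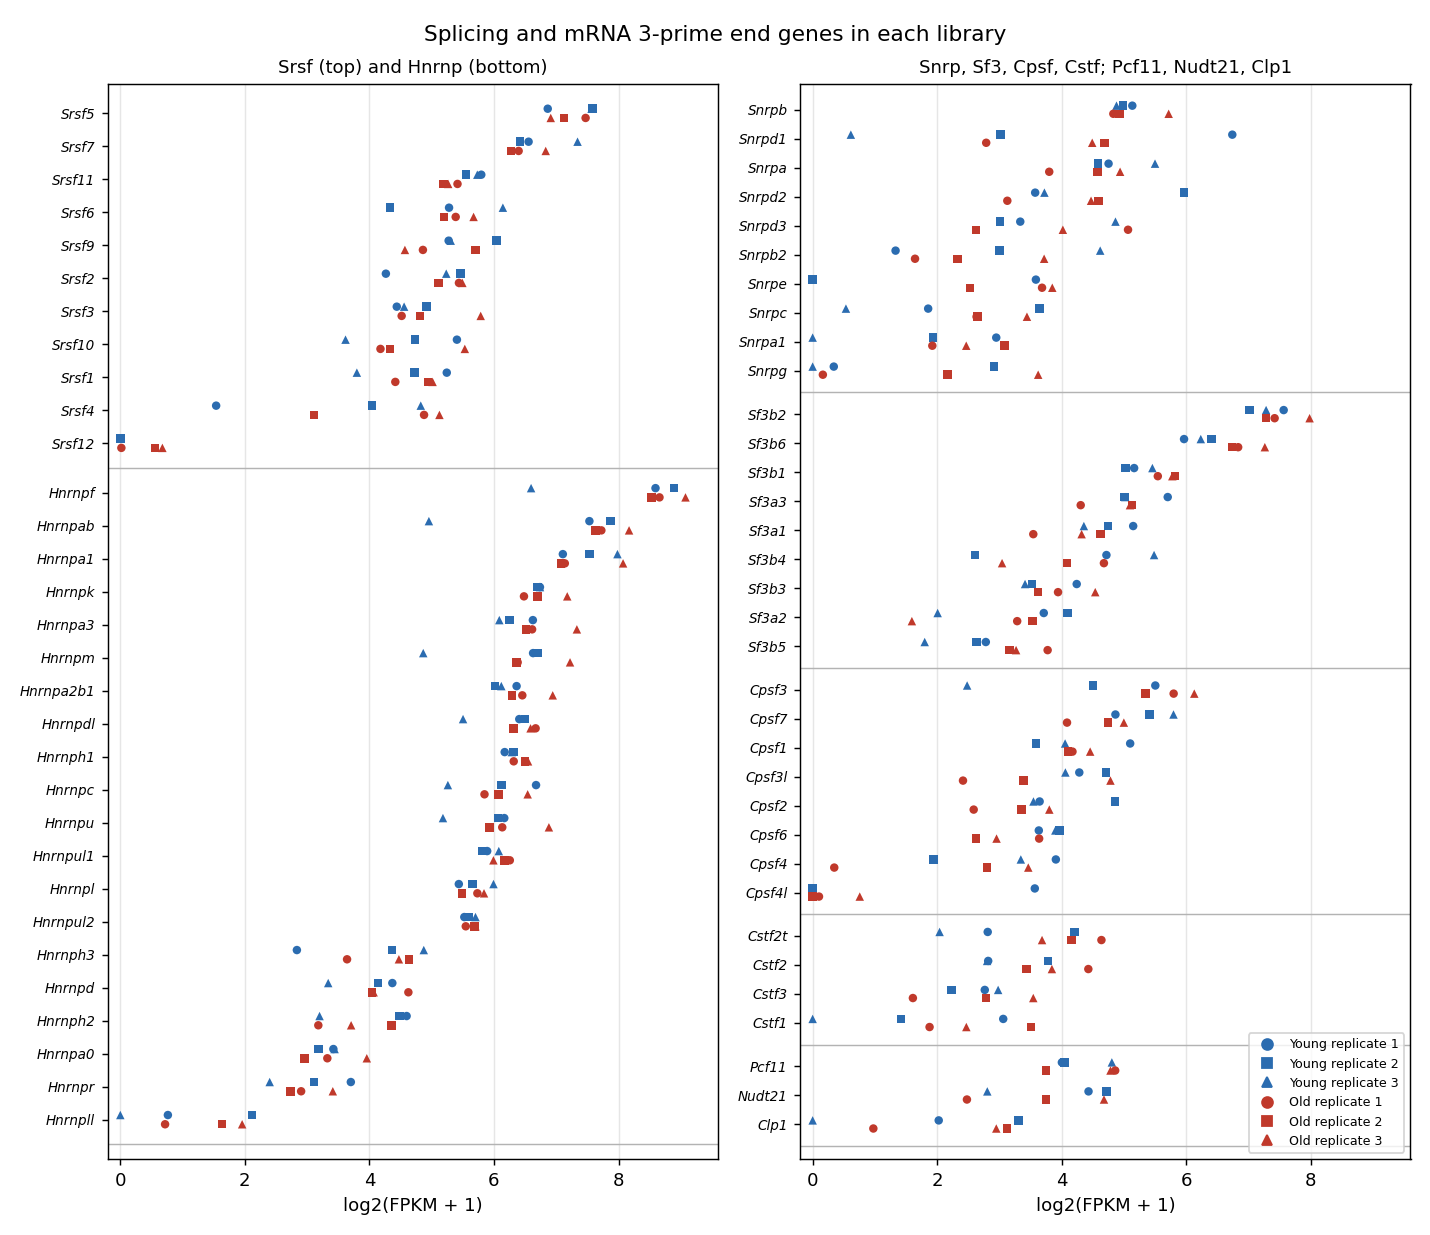
Log2(FPKM + 1) of the 65 members in each of the 6 libraries, one row per gene, grouped by family and ordered by mean FPKM, with young libraries in blue (drawn slightly above) and old libraries in red. Hnrnpf is the highest row, from 95.7 to 538 FPKM, while Hnrnpll and Srsf12 lie at the low end, and Snrpd1 has the widest spread of the abundant genes.

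Cpsf genes had a median log2 change of -0.76, with 7 of 8 negative and Cpsf3 the exception. Of the 7, Cpsf1 was at -0.0040 and Cpsf3l is the Integrator gene. Cpsf4l, at -0.90, reached the filter only through its 10.9 FPKM in young replicate 1. Without that library the Cpsf4l change was 0.29. Without single libraries the Cpsf median ran from -0.99 to -0.35 (without old replicate 1), and at a mean of at least 20 FPKM, where Cpsf3 and Cpsf7 remain, it was 0.42. Cstf genes had a median of 0.95 with 3 of 4 positive. The medians of the larger families lay nearer to the 0.23 of all genes, at 0.13 for Srsf, 0.22 for Hnrnp, 0.27 for Sf3 and 0.35 for Snrp. That background depends on level. It was 0.36 for genes with a mean of 1 to 20 FPKM, where each Cstf gene lies, and 0.018 at 20 FPKM or more. At the higher level the median was 0.30 over 14 Hnrnp and 0.095 over 9 Srsf genes. The Snrp family median log2 change was 0.027 with array weights and -0.0997 among genes averaging 20 FPKM or more. Dropping old replicate 3 gave 0.094 and dropping old replicate 1 gave 0.68. The Srsf family median log2 change turned to -0.021 with array weights and -0.032 without young replicate 1, the Sf3 median to -0.032 among genes averaging 20 FPKM or more, and the Hnrnp median ran from 0.096 (without young replicate 3) to 0.32. None of these family medians was tested. Within-group SDs of the family median per library, on the log2 scale, were 0.62 for Snrp, 0.42 for Cpsf and 0.34 for Hnrnp. They were 0.27 for Cstf, 0.19 for Sf3 and 0.16 for Srsf, against 0.11 for the median over all tested members.

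**Figure D2:**
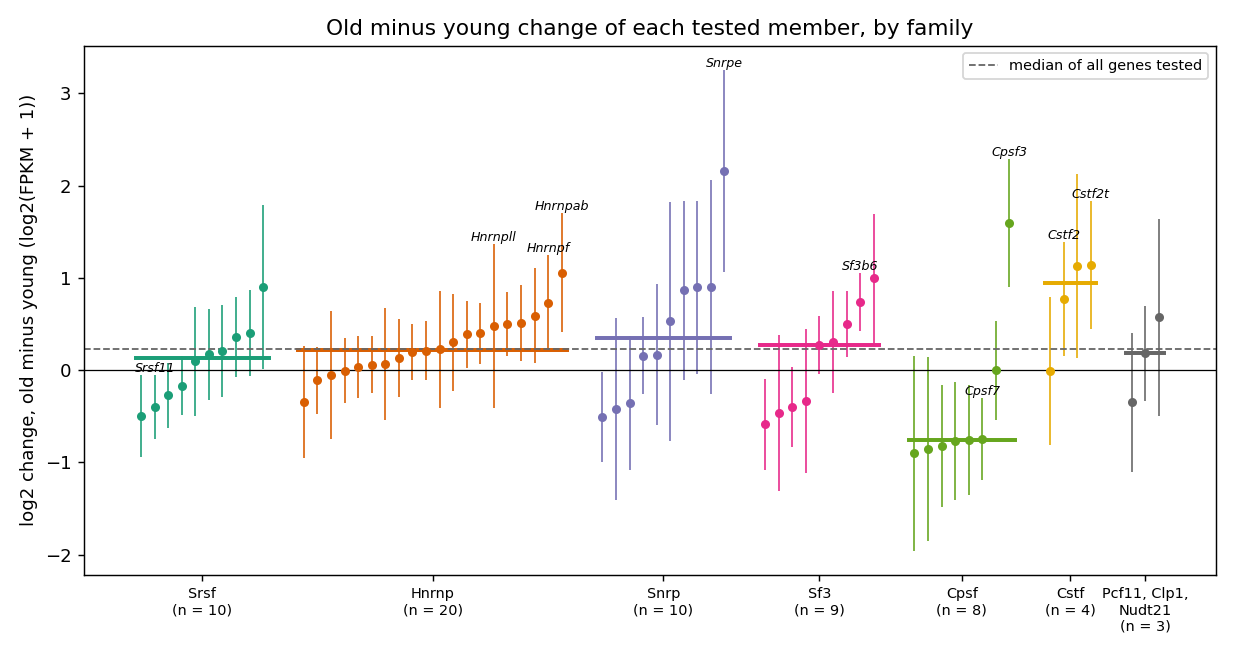
Log2 change (old minus young, log2(FPKM + 1) scale) of each tested member with its limma standard error as a bar, by family, with a thick line at the family median and a dashed line at the median of all genes tested, 0.23. Cpsf genes sit mostly below 0 around a median of -0.76, while Cpsf3 sits at 1.60.

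The factors tied to secretory antibody mRNA processing were expressed at very different levels. Cstf2 (ENSMUSG00000031256.11, chromosome X, 134059187 to 134086819, plus strand, GRCm38) encodes the CstF subunit that binds the GU-rich element. Its close relative Cstf2t (chromosome 19, 31082837 to 31087069, plus strand), a copy without introns that lies inside an intron of Prkg1, encodes a second CstF-64 protein. The 250 bases before the RefSeq start of these 2 genes and of 2 further members, Sf3b6 and Hnrnpab, are printed below. They read 5′ to 3′ on the strand of the gene (GRCm38.p6), and capitals mark matches on either strand to CCAAT (the motif of NF-Y), to ACGTG (the core of sites for the plasma cell factor XBP1, among others) or to CCGGAA (a core of ETS sites).
Cstf2 (chrX:134058926-134059175, plus): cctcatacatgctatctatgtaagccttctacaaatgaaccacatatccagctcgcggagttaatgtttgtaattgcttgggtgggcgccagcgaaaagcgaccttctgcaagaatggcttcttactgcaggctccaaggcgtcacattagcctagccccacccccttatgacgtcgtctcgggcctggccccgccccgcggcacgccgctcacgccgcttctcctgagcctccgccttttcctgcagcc
Cstf2t (chr19:31082591-31082840, plus): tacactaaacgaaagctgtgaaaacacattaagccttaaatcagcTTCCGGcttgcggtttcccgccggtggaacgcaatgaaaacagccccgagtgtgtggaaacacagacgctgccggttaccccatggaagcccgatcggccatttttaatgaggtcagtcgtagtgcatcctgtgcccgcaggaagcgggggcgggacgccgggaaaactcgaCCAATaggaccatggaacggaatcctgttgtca
Sf3b6 (chr12:4817358-4817607, plus): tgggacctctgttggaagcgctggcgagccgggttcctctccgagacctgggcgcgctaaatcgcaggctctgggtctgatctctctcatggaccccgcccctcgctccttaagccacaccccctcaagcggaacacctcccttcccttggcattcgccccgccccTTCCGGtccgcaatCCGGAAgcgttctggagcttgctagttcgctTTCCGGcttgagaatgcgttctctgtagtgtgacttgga
Hnrnpab (chr11:51606882-51607131, minus): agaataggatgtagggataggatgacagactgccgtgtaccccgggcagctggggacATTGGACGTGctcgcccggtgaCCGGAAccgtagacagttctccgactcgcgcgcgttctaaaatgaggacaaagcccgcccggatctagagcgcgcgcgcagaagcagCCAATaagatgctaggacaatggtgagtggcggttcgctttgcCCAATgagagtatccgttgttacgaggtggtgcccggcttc
Cstf2 held none of the 3 motifs, Cstf2t held CCAAT and CCGGAA once each, Sf3b6 held CCGGAA 3 times, and Hnrnpab held CCAAT 3 times and the others once each. The Sf3b6 window ends at 4817607, past the annotated gene start at 4817544. Its last bases, with the last CCGGAA match, therefore lie inside the annotated gene. The Cstf2t window likewise ends at 31082840, past the annotated start at 31082837. RefSeq start windows were matched for 57 of the 65 members, giving 73 windows. CCGGAA was present in 41.1% of the members' windows, in 12% of all 32851 windows and in 22.9% of the 10593 windows of tested genes. CCAAT was in 39.7%, 33.8% and 35.5% of the same sets, and ACGTG in 26%, 16.6% and 21.9%. These are matches of letters, with no test, and say nothing of which factor binds.

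Cstf2 stood at 6.06, 12.7 and 5.97 FPKM in young replicates 1 to 3 and at 20.5, 9.83 and 13.3 in old replicates 1 to 3. Young replicate 2 lay above old replicate 2, so the groups overlapped. The log2 change was 0.77 ± 0.62 (SE) with a limma adjusted p = 0.854, and 0.51 without old replicate 1. As Cstf2 is on chromosome X, and shares 399 annotated exon bases with Nox1 on the other strand, sex and antisense reads cannot be separated from age for it. Cstf2t went the same way, at 6.02, 17.5 and 3.11 FPKM in the young group and 23.9, 16.8 and 11.8 in the old, the log2 change being 1.14 ± 0.70 (SE; limma adjusted p = 0.844). Again young replicate 2 reached into the old range, and without young replicate 3, the lowest, the change was 0.65. The 2 genes were of similar level in each library, the ratio of Cstf2 to Cstf2t running from 0.584 to 1.92. How reads that match both copies were assigned is not given in the sources used here.

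Hnrnpf (ENSMUSG00000042079.13, chromosome 6, 117900324 to 117925622, plus strand) was the most abundant member by mean FPKM. It measured 385, 473 and 95.7 FPKM in the young group and 403, 368 and 538 in old ones. Young replicate 3 was the one library set apart, and the other 5 lay between 368 and 538. The log2 change of 0.73 ± 0.53 (SE; limma adjusted p = 0.854) fell to 0.012 without that library. Of its relatives, which bind similar G-rich sequences, Hnrnph1 was not low in that library and Hnrnph3 was highest there. Hnrnph2 was low there and as low in old replicate 1. Hnrnph1 was at 71.1, 78.4 and 77.1 FPKM in the young group and 78.7, 89.2 and 92.5 in the old, groups that just missed each other, with a log2 change of 0.20 ± 0.30 (SE; limma adjusted p = 0.916). The ratio of Hnrnpf to Hnrnph1 was 4.13 to 6.03 in 5 libraries and 1.24 in young replicate 3. Hnrnph2, on chromosome X, was at 23.2, 21.4 and 8.18 against 8.06, 19.4 and 12.1, and Hnrnph3 at 6.14, 19.6 and 28.3 against 11.5, 23.9 and 21.2, both with overlapping groups.

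Hnrnpll (ENSMUSG00000024095.15, chromosome 17, 80029487 to 80062334, minus strand) was the lowest of the Hnrnp genes. It stood at 0.698, 3.34 and 0 FPKM in the young group and at 0.646, 2.10 and 2.88 in the old group, for a log2 change of 0.47 ± 0.89 (SE; limma adjusted p = 0.935) with full overlap. The gene has long exons, so 0.698 FPKM still stands for about 200 reads and 3.34 for about 993. By counting error alone, the 0 of young replicate 3 allows at most 0.0114 FPKM, the value of 3 reads. Loss of molecules from the small RNA input is not covered by that bound. Its relative Hnrnpl, which acts on the same CD45 exons, was far higher and even, at 42.3, 49.3 and 62.7 FPKM in the young group and 52.2, 43.7 and 56.3 in the old. Its log2 change was -0.0079 ± 0.35 (SE). Hnrnpl exceeded Hnrnpll 14.8-fold to 80.8-fold in the 5 libraries where the latter was above 0.

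Among partners named for comparison, Ell2, the elongation factor known to promote the secreted heavy chain form, was abundant at 152, 205 and 208 FPKM in the young group and 193, 248 and 168 in the old. Ptbp1, a widely expressed repressor of exons, was at 40.9, 32.8 and 63.1 against 21.4, 52.0 and 56.3. Neither separated the groups, and their log2 changes were 0.10 ± 0.29 and -0.14 ± 0.47 (SE).

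**Figure D3:**
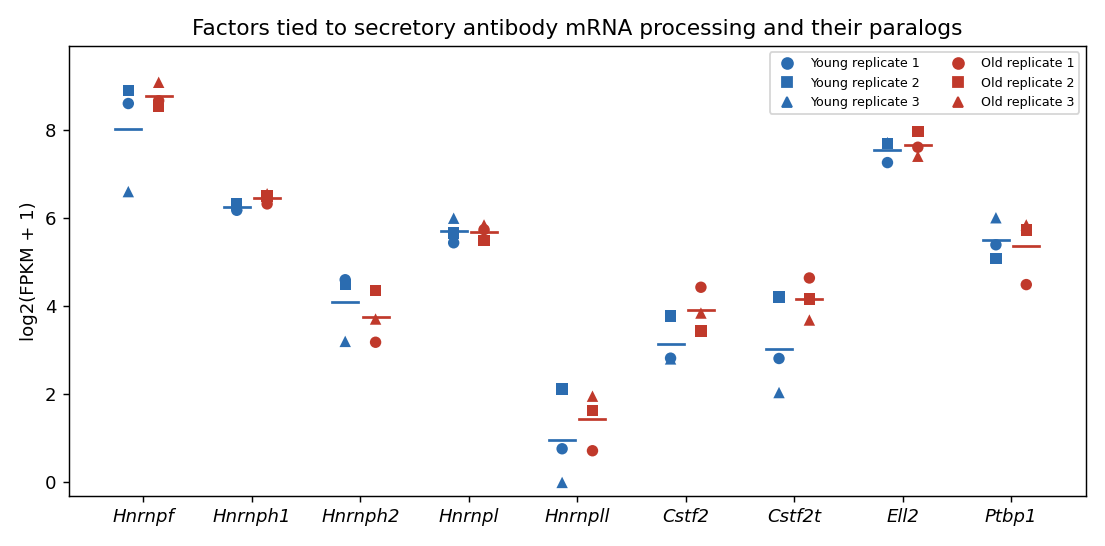
Log2(FPKM + 1) of factors tied to secretory antibody mRNA processing and of their paralogs in each library, with young in blue and old in red, one marker shape per replicate number and a bar at each group mean. Young replicate 3 lies apart from the other libraries for Hnrnpf (95.7 FPKM) and is listed at 0 for Hnrnpll, while Cstf2 and Cstf2t overlap between groups through young replicate 2.

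The other CstF subunits were low. Cstf1, a WD-repeat subunit, was at 7.34, 1.67 and 0 FPKM in the young group and 2.67, 10.4 and 4.53 in the old. Cstf3, which bridges CstF and CPSF, was at 5.79, 3.68 and 6.88 against 2.05, 5.90 and 10.7 (chosen after its values were seen), with a log2 change of -0.010. Summed over the 4 Cstf genes, FPKM was 25.2, 35.6 and 15.96 in the young group and 49.1, 42.96 and 40.4 in the old group. The old sums lay above each young sum, a description of genes that each overlapped on their own. Without young replicate 3 the family median was 0.49, against 0.95 with it.

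CPSF subunits did not move together. Cpsf3 (ENSMUSG00000054309.8, chromosome 12, 21285391 to 21315056, plus strand) encodes the endonuclease that cuts the transcript. Its values were 44.3, 21.6 and 4.58 FPKM in the young group and 54.6, 39.6 and 68.9 in the old, overlapping through young replicate 1. Its log2 change was 1.60 ± 0.69 (SE; limma unadjusted p = 0.0437, adjusted p = 0.839), and 0.76 without young replicate 3. Its partner Cpsf2, a related protein without cutting activity, went the other way, at 11.5, 28.0 and 10.7 against 5.00, 9.24 and 12.9, with a log2 change of -0.77 ± 0.64 (SE), or -0.35 without young replicate 2. Cpsf1, the large scaffold subunit, was at 33.3, 11 and 15.6 against 17.03, 16.1 and 20.9, and Cpsf4, a zinc finger subunit that reads the AAUAAA signal, at 13.98, 2.83 and 9.15 against 0.272, 5.96 and 10.02 (both chosen after their values were seen). The Integrator gene Cpsf3l was at 18.5, 25.2 and 15.7 in young and 4.33, 9.47 and 26.5 in old libraries. Cpsf3 shares 196 exon bases with Itgb1bp1 and Cpsf3l 697 with Pusl1, both on the other strand. Cpsf4l was above 1 FPKM in young replicate 1 alone, at 10.9.

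Cleavage factor I, which binds UGUA upstream of the cut and favours distal sites, had lower old means for each of its 3 genes. Cpsf7 was at 28.1, 41.5 and 54.5 FPKM in the young group and 15.96, 25.8 and 30.9 in the old, a log2 change of -0.75 ± 0.45 (SE; limma adjusted p = 0.844), or -0.48 without old replicate 1. Cpsf6 was at 11.4, 14.6 and 13.9 against 11.4, 5.16 and 6.74, a log2 change of -0.76 ± 0.60 (SE; limma adjusted p = 0.854). In both, 1 old library reached the young range. Nudt21, the small subunit that binds UGUA, was at 20.6, 25.3 and 5.99 against 4.57, 12.4 and 24.6 (chosen after its values were seen) and overlapped throughout. Of the cleavage factor II pair, Pcf11, which also links 3′ processing to termination, was at 15.0, 15.5 and 26.9 against 28.0, 12.4 and 26.5. Clp1, an RNA kinase, was at 3.07, 8.89 and 0 against 0.965, 7.69 and 6.72, and its log2 change of 0.57 became -0.32 without young replicate 3.

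SF3A and SF3B, the U2 complexes at the branch point, differed in sign: each of the 3 Sf3a genes had a negative log2 change and 5 of the 6 Sf3b genes a positive one. This split was noticed in the values and was not tested. Sf3b6 (ENSMUSG00000037361.7, chromosome 12, 4817544 to 4827659, plus strand) encodes the p14 subunit that contacts the branch adenosine. Its values were 61.4, 83.8 and 74.2 FPKM in the young group and 113, 105 and 152 in the old, so each old library exceeded each young one. The mean was 73.1 ± 11.3 in young and 123 ± 25.3 in old (SD, n = 3), and the log2 change was 0.74 ± 0.32 (SE; limma unadjusted p = 0.0411, adjusted p = 0.839). Without single libraries that change stayed between 0.58 and 0.85, and the adjusted p over all settings ran from 0.577 to 0.955.

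Sf3b1, the large subunit that clamps the branch site, was at 34.8, 31.6 and 42.9 FPKM in the young group and 45.6, 55.5 and 53.8 in the old. Its groups did not overlap, with a log2 change of 0.50 ± 0.36 (SE; limma adjusted p = 0.854). Sf3b5, a small subunit, was at 5.87, 5.18 and 2.48 against 12.7, 7.95 and 8.63, again without overlap, with a log2 change of 1.00 ± 0.70 (SE; limma adjusted p = 0.854). Sf3b2, the most abundant Sf3 gene, overlapped at 188, 128 and 155 against 170, 154 and 251. Sf3a1 was at 34.4, 25.8 and 19.5 FPKM in the young group and 10.7, 23.6 and 19.0 in the old, with a log2 change of -0.59 ± 0.49 (SE), or -0.28 without old replicate 1, and overlap through young replicate 3. Sf3a2 and Sf3a3, chosen after their values were seen, had log2 changes of -0.47 and -0.40. Summed FPKM over the 3 Sf3a genes was 97.6, 72.95 and 53.9 in young and 38.2, 68.2 and 54.2 in old libraries, and over the 6 Sf3b genes 333.5, 264.5 and 327.5 against 380, 350.3 and 496.

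The Snrp genes encode Sm ring proteins and proteins of the U1 and U2 particles. Their median SD between young libraries was 1.53 (log2 scale), against 0.60 over all tested members and 0.93 over all genes tested. At a mean of at least 20 FPKM that median was 0.91 over 4 Snrp genes, against 0.45 over all members and 0.59 over all genes at that level. Snrpd1, an Sm protein gene (named after its values were seen), measured 106, 7.10 and 0.530 FPKM in young libraries alone, a span of 200-fold. In old libraries it was at 5.90, 24.7 and 21.5. Snrpe, also of the Sm ring, was at 11, 0 and 0 FPKM in the young group and 11.8, 4.75 and 13.4 in the old, with young replicate 1 inside the old range. Its log2 change of 2.16 ± 1.10 (SE) had a limma adjusted p = 0.839. That change was 1.56 without young replicate 2 and 3.35 without young replicate 1. By counting error alone, the Snrpe zeros allow at most 0.0858 and 0.0967 FPKM, while 11 stands for about 371 reads. Snrpg was at 0.265, 6.52 and 0 against 0.120, 3.48 and 11.3, and Snrpa1, a U2 protein gene, at 6.72, 2.81 and 0 against 2.79, 7.47 and 4.53. By contrast Snrpb, the gene of the SmB proteins, was even in young libraries, at 34.1, 30.6 and 28.4. In old libraries it was at 27.4, 29.4 and 51.6. Snrpa, which binds U1 snRNA, was at 25.9, 22.9 and 44.2 against 12.9, 22.8 and 29.6.

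SR protein genes had few values near 0 and groups that mostly overlapped. Srsf5 was the most abundant, at 115, 191 and 189 FPKM in the young group and 176, 139 and 119 in the old. Srsf11 was the one tested Srsf gene whose groups did not overlap, at 54.6, 45.9 and 52.2 in young and 41.6, 35.5 and 37.4 in old libraries. The mean was 50.9 ± 4.49 in young and 38.2 ± 3.14 in old (SD, n = 3), with a log2 change of -0.40 ± 0.35 (SE; limma adjusted p = 0.854), and it stayed between -0.47 and -0.35 without single libraries. Srsf9 was at 37.6, 65.0 and 38.5 against 28.0, 51.1 and 22.7, overlapping through old replicate 2. Srsf12, a gene of restricted expression, was listed at 0 throughout the young group and at 0.0117, 0.471 and 0.597 FPKM in old ones, about 1, 41.9 and 51.9 reads. The remaining Srsf genes (Srsf1, Srsf2, Srsf3, Srsf4, Srsf6, Srsf7 and Srsf10) overlapped between groups. Of the 9 Srsf genes with a mean of at least 20 FPKM, the highest library exceeded the lowest 1.54-fold in Srsf11 and 4.02-fold in Srsf10.

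Among Hnrnp genes 16 of 20 had a positive log2 change, against 61.3% of all genes tested. Hnrnpab, an A/B type RNA binder, resembled Hnrnpf in its single low library, at 184, 233 and 30.0 FPKM in the young group and 210, 198 and 287 in the old. Its log2 change was 1.06 ± 0.65 (SE; limma adjusted p = 0.844), and 0.14 without young replicate 3. Hnrnpab shares 809 exon bases with Phykpl on the other strand. Hnrnpm, named here after its values were seen, had the same shape at 97.9, 103 and 28.1 against 82.3, 81.1 and 148. Hnrnpa3, which resembles hnRNP A2/B1, was at 97.7, 74.9 and 66.9 FPKM in the young group and 96.8, 90.2 and 160 in the old (log2 change 0.50 ± 0.35 SE, limma adjusted p = 0.854), and its change was 0.24 without old replicate 3. Hnrnpul2, chosen after its values were seen, was the steadiest member with a mean of at least 20 FPKM, its highest library exceeding its lowest 1.14-fold. Processed copies of Hnrnpa1 and other members are common in the genome, and reads shared with them may be split.

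Old replicate 3 held the highest value for many of these genes. Of the 36 members with a mean of at least 20 FPKM, 16 (44.4%) were highest in old replicate 3, where 16.5% of all 2835 such genes were highest. Young replicate 3 held the lowest value of 11 (30.6%), against 26.1% of all such genes, and old replicate 3 held the lowest of 1. The sum over Hnrnp genes was 1633, 1766 and 1081 FPKM in the young group and 1645, 1584 and 2310 in the old, so the other 4 libraries lay between 1584 and 1766. Young replicate 3 was at or under 0.5 of the mean of young replicates 1 and 2 for 9 of these 36 members, or 25%, against 20.2% of all such genes. It also had 8 of the 65 members listed at 0, against 1 and 3 in the other young libraries and 0 to 1 in each old library. Of the tested members 10.9% were below 0.1 FPKM there, against 25.2% of all genes tested.

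Other measures moved with old replicate 3. The summed FPKM of 7 plasma cell markers was 8803 there and 19530 to 22850 elsewhere. The 7 monocyte and macrophage markers summed to 639 there, to 185 and 282 in the other old libraries and to 83.9 to 220 in young ones, although the sort gated against CD11b. Of those 7 markers Lyz2 alone was above each young library in each old one, and Adgre1 was at 0 in the young libraries. The 9 neutrophil markers did not move as one: their sum was 935 there and 1248 in old replicate 2, and while Elane was highest in old replicate 3 at 220 FPKM, S100a9 and Ngp were lowest there at 40.2 and 38.4. The 6 cycling cell markers summed to 438 there and 105 to 249 elsewhere, and 5 erythroid markers to 745 against 0.320 to 264. Their part in the high member values was not tested. Without old replicate 3 the member median was 0.058, against 0.17 with it, and 0 members had an unadjusted p under 0.05.

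**Figure D4:**
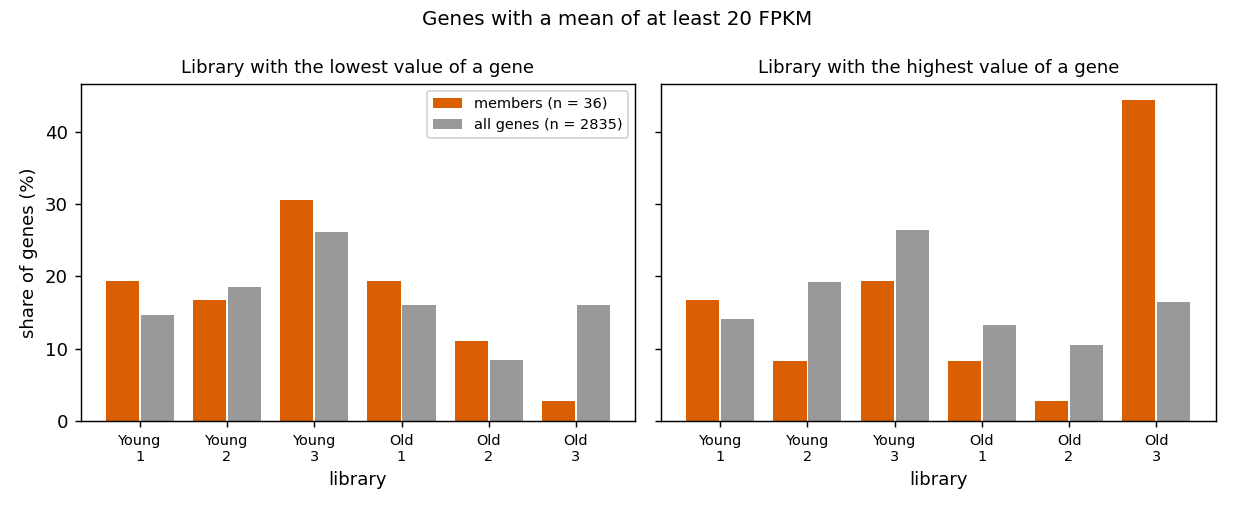
Share of genes (%, bars from 0) whose lowest value (left) or highest value (right) fell in each library, for the 36 members and for all 2835 genes with a mean of at least 20 FPKM. Old replicate 3 holds the highest value of 44.4% of members and of 16.5% of all genes.

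Genes of the same pathways outside the rule were taken from 3 lists. Of 52 other spliceosome proteins, each tested, 36 had a positive and 16 a negative log2 change, with a median of 0.25, and limma called 0. At an unadjusted p under 0.05, 3 were higher and 2 lower. Over all genes tested, 61.3% had a positive change, and 4.66% were higher and 1.25% lower at that p. These shares are the background for each of the 3 lists. The smallest p was that of Snrnp35, the gene of a minor spliceosome protein. Snrnp35 was at 4.24, 4.6048 and 1.5025 FPKM in the young group and 15.8, 20.6 and 41.4 in the old, with no overlap. Its log2 change was 2.57 ± 0.68 (SE) with a limma adjusted p = 0.680 (range 0.439 to 0.900 over the settings), and it was 2.18 to 2.85 without single libraries. A second minor spliceosome gene, Snrnp25, was at 21.1, 0.424 and 0 against 49.96, 22.2 and 8.88 and overlapped. Plrg1, of the complex that activates the spliceosome, did not, at 7.80, 15.9 and 2.33 against 20.4, 21.1 and 24.9. Sart3, which recycles the U4 and U6 particles, was lower in each old library, at 32.5, 35.3 and 28.3 against 13.4, 11.8 and 8.14 (log2 change -1.47 ± 0.46 SE, limma adjusted p = 0.736). U2af1l4, a relative of the 3′ splice site factor U2af1, was at 29.6, 0 and 27.6 in young and at 0, 0 and 0.406 in old libraries. Puf60, a partner of U2AF, was at 150, 90.8 and 154 against 60.9, 82.0 and 111.

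Of 50 other splicing regulators, 48 were tested, 25 positive and 23 negative, with a median of 0.02. The single one with an unadjusted p under 0.05 was Clk1, a kinase of SR proteins, at 34.3, 30.8 and 13.1 FPKM in the young group and 87.2, 59.2 and 32.4 in the old, where old replicate 3 reached the young range. Sfswap, a splicing regulator, was lower without overlap, at 32.0, 40.1 and 27.5 against 15.7, 20.7 and 20.9. Tra2a, Taf15, Scaf4 and Rbm10 overlapped. Of 33 other 3′ end, termination and export genes in the deposited file, 31 were tested, 16 positive and 15 negative, with a median of 0.0032 and 0 at an unadjusted p under 0.05. Wdr82, a termination factor, was at 15.5, 12.04 and 27.9 FPKM in the young group and 5.30, 9.75 and 8.46 in the old, with old below young and a limma adjusted p = 0.841. Xrn2, the exonuclease of termination, was at 36.6, 48.1 and 46.3 against 37.6, 30.5 and 21.5. Slbp, which binds the histone mRNA stem loop, was at 7.77, 8.29 and 0.290 against 7.49, 8.49 and 25.8. Sympk, the scaffold that joins CPSF and CstF, was at 25.6, 27.2 and 15.6 against 9.84, 19.5 and 14.01. Nxf1 and Ell overlapped as well.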

How the data were processed

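RNA of sorted bone marrow plasma cells was sequenced as paired ends from 6 mouse libraries (stranded total-RNA kit, 5 ng input), per the labels' protocols. The authors deposited 1 table of FPKM values per gene. The submitters' processing notes list GRCm38 and mm10 as builds, and as tools DESeq2, STAR and bcl2fastq 2.17, giving none a role. Which counter, annotation and strand setting were used is not given in the sources used here, so reads of antisense neighbours and of close copies may be split or merged. FPKM values are not counts, so no count model was run, and no further scaling was applied.

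Members, gene lists and tests were chosen with earlier results of these data known. Old and young were compared by limma 3.58.1 under R 4.3.3 on log2(FPKM + 1), its prior variance following mean expression, two-sided, for genes with a mean of at least 1 FPKM, with Benjamini-Hochberg adjustment over all genes tested and a threshold of 0.05. The fit was run on simulated data with a spread capped below the typical spread here and with changes larger than those of the members. That run checked the code and cannot show what the fit would detect in these libraries. The text names the secretory mRNA factors, the 8 members of smallest p in each direction, the highest and lowest member of each family, members that range from below 0.1 to at least 5 FPKM, members on chromosome X, close copies, and up to 3 genes per direction in each list. Alternatives changed the pseudocount, filter, scaling, weights, moderation and block, and left out each library. Coordinates are from GENCODE M21 (GRCm38), which held 99.9% of the identifiers without their version. For depth, the ratios of low values between libraries were whole-number ratios within 0.1%, and reads amplified from so little RNA are not independent molecules, so floors cover counting error only. Python 3.11.15 was used for tables.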

Additional observations from a re-analysis of the deposited data

How the results depend on the processing

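No member was called under any of the 16 alternative settings, and the smallest limma adjusted p of a member ranged from 0.435 to 0.943. Limma called 1 of all genes under quantile normalization, array weights and robust moderation, and 0 otherwise. Against 2 members with an unadjusted p under 0.05, the number was 1 at a pseudocount of 0.1, with no filter, at a mean of at least 5 or 20 FPKM, after median-ratio scaling and with the replicate block, 0 with array weights, and 0 to 2 without single libraries. The member median of 0.17 was 0.063 with array weights and ran from 0.058 to 0.28 without single libraries. The median of all genes tested moved too, from 0.23 in the main fit to 0.18 with array weights. After quantile normalization the median of all genes was -0.010 and the member median 0.21. The Cstf median was 0.52 at a pseudocount of 5 and 0.60 after quantile normalization (0.49 to 1.09 without single libraries). The Sf3 median was -0.032 at a mean of at least 20 FPKM, where 6 members remain, and 0.080 with array weights. The Cpsf median was 0.42 at that mean, where only Cpsf3 and Cpsf7 remain, and no Cstf gene reached it. The Srsf median ran from -0.032 to 0.25 without single libraries. Of 52 named genes tested, 43 kept their sign in each setting in which they were tested, since genes below a stricter filter have no value there. After quantile normalization the Hnrnpl log2 change was 0.0922 and the Hnrnpll log2 change -0.26, and with array weights the Ptbp1 log2 change was 0.041. Without single libraries it ran from -1.50 to 0.29 for Cpsf4l, -0.049 to 0.23 for Ell2, -0.37 to 0.65 for Hnrnph3, -0.32 to 1.33 for Clp1, -0.14 to 0.14 for Hnrnpl, -0.0052 to 1.05 for Hnrnpll, -0.38 to 0.29 for Ptbp1, -0.017 to 0.54 for Pcf11 and -0.12 to 0.32 for Snrpb. The cause was not tested beyond the smaller number of genes or libraries in each setting. Replicate numbers are shared by the groups, but same-numbered libraries did not deviate together (correlations of -0.034, 0.020 and -0.0041 across genes), so the replicate block is given as a number only: it called 0 members and changed no call. In old replicate 1 the values of Srsf12 and Cpsf4l rest on about 1 and 4.45 reads. The Cpsf4l value of young replicate 1 rests on about 599 reads.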
